A study of Rattus with 9 samples.

Results

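Interferon-stimulated genes are the antiviral genes that a cell switches on when interferon reaches its surface. The 9 genes described here were the rows of the deposited liver table named Irf7, Isg15, Usp18, Mx1, Mx2, Ifit2, Ifit3, Rsad2 and Oas1a. They were chosen by name, each name matched 1 row, and they make up 9 of the 20236 genes in the table. All 9 were among the 11078 genes that passed a filter on low values, at least 1 FPKM in at least 3 of the 9 libraries, and were tested. FPKM, fragments per gene length and library total, is a level corrected for gene length and depth. Rsad2, the lowest of the 9, reached 1 FPKM in 5 libraries, 3 of them of the pomegranate-high group, so that its passing the filter leaned on the group where it was highest. The counts over the 9 genes below include Rsad2, and its place among genes higher in pomegranate-high is no support for them.

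Type I interferons bind the receptor IFNAR on almost every nucleated cell. The receptor kinases JAK1 and TYK2 then relay the signal to transcription factors, IRF9 among them, that bind a promoter element shared by interferon-stimulated genes. The same genes can be raised by interferon lambda and, in part, by interferon gamma. In the liver hepatocytes, Kupffer cells (the resident macrophages) and endothelial cells all respond to type I interferon.

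The liver libraries number 9, 3 each of a pomegranate-high, a model and a normal control group, made from the poly(A) RNA of Sprague-Dawley rats, an outbred strain, after 8 weeks of administration. The study concerned hyperlipidemia, a raised blood lipid level. The labels give no account of how the model was induced, of the pomegranate preparation or its dose, of what the normal controls received, or of the animals' sex and age, and do not state whether the pomegranate-high rats were also model rats. They do not say that each library is a separate animal, so the p-values measure the spread between these libraries only.

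Depth was 13678658 to 17966670 reads per library, and a count of 0 leaves room for up to 3 reads, which for 1 kb of gene means 0.167 to 0.219 FPKM in counting error alone. All 12 hepatocyte markers were measured and tested, and albumin alone took 4.85% to 10.05% of the reads of a library. Of the libraries 3 stood apart from the rest. Transcripts of the mitochondrial genome made up 9.62% of pomegranate-high replicate 1, 11.4% of pomegranate-high replicate 2 and 14.5% of model replicate 1, against 4.17% to 6.398% in the other 6 libraries. Their median correlation with the other 8 libraries was 0.931, 0.922 and 0.929, against 0.963 to 0.970. Counts and medians over the 9 genes are also given without them. In liver tissue as a whole, fewer cells of a type and less RNA per cell cannot be told apart.

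The 9 genes stood higher in the pomegranate-high livers than in the model livers, and 8 of the 9 stood higher than in the normal control livers, but none of the 9 passed the test after adjustment over all genes. Over all genes 61% stood higher in pomegranate-high than in model and 57.4% higher than in normal control. Between model and normal control 2 of the 9, Ifit2 and Rsad2, were higher in model, with 45.9% of all genes. A difference of at least 1 on the log2(FPKM + 1) scale was seen in 8 of the 9 genes between pomegranate-high and model (2.81% of all genes), in 2 between pomegranate-high and normal control (2.83%) and in 0 between model and normal control (0.551%). The median difference over the 9 genes, on the same scale, was 1.20 between pomegranate-high and model, against 0.09 over all genes tested. It was 0.79 between pomegranate-high and normal control, against 0.07 over all genes, and −0.57 between model and normal control, against −0.03. The comparisons of pomegranate-high and of normal control with model share the model libraries, those with pomegranate-high share its libraries, and those with normal control share the controls. By limma with Benjamini-Hochberg adjustment, 0 of the 9 genes had an adjusted p under 0.05 in any of the 3 comparisons. Over all genes 0.00903% were called between pomegranate-high and model, 0.0181% between pomegranate-high and normal control and 0.00903% between model and normal control. Limma's voom on recovered reads called 0 of the 9 as well, with 0%, 0.00903% and 0% of all genes.

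At an unadjusted p under 0.05, 7 of the 9 genes were higher in pomegranate-high than in model livers, with 7.12% of all genes on that side. The exceptions were Rsad2 and Oas1a. Between pomegranate-high and normal control 3 of the 9, Ifit2, Rsad2 and Mx1, were higher at that level, with 7.24% of all genes. Between model and normal control the count was 0, with 2.98% of all genes in either direction. In voom the counts at an unadjusted p were 7 (6.53% of all genes), 3 (7.06%) and 0 (2.83% in either direction).

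The spread between libraries was large beside these differences. In 6 of the 9 genes (Irf7, Isg15, Mx1, Ifit2, Ifit3 and Rsad2) all 3 pomegranate-high libraries lay above all 3 model libraries, as they did in 8.78% of all genes. In 5 of the 9 (Irf7, Isg15, Mx1, Ifit2 and Rsad2) they also lay above all 3 controls, with 12.4% of all genes. Rsad2 is in both counts, though its passing the filter leaned on the pomegranate-high group. The model and control libraries overlapped in every one of the 9 genes, where 8.79% of all genes did not overlap in either direction.

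**Figure D1:**
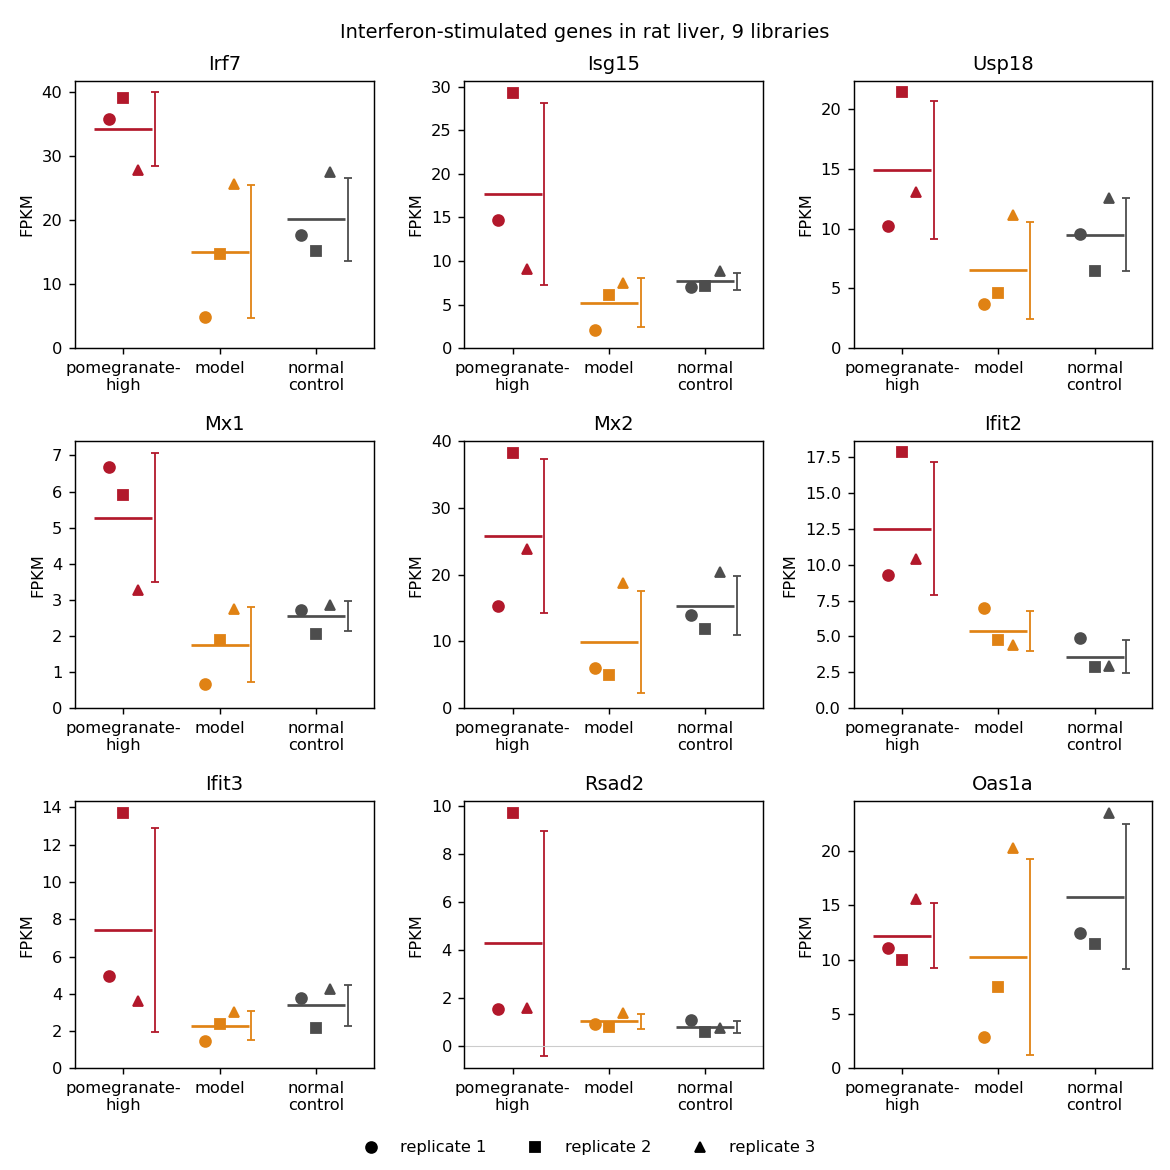
FPKM of each of the 9 genes (y axis, linear, 1 panel per gene) in the 3 libraries of the pomegranate-high, model and normal control groups (x axis); symbols give the replicate, lines the group mean and bars the SD (n = 3). Pomegranate-high replicate 2 is the highest library in 7 panels and model replicate 1 the lowest in 6. The groups of Mx2, Usp18 and Oas1a overlap in every comparison, and model and normal control overlap in all 9 panels. The Oas1a means are 12.2, 10.2 and 15.8 FPKM in pomegranate-high, model and normal control.

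Irf7 encodes interferon regulatory factor 7, the transcription factor that amplifies type I interferon production once a first wave of interferon has induced it. It lies on chromosome 1, 214248837 to 214252456, minus strand (build Rnor_6.0), and was the most abundant of the 9 in each group. Its level was 35.7, 39.0 and 27.8 FPKM in the pomegranate-high livers. The model livers held 4.78, 14.7 and 25.5 FPKM and the normal control livers 17.7, 15.2 and 27.4 FPKM. The lowest pomegranate-high library thus lay just above the highest model and the highest control library, and the model libraries were spread more widely than the controls. The difference was 1.38 ± 0.48 (SE, log2 scale) between pomegranate-high and model (limma adjusted p = 0.484) and 0.77 ± 0.48 between pomegranate-high and normal control (limma adjusted p = 0.581). Model minus normal control gave −0.61, with a 95% interval of −1.67 to 0.44.

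The annotated span of Irf7 overlaps that of Phrf1 on the opposite strand, and the sources used here do not state whether reads were counted by strand. Phrf1 averaged 6.26 ± 0.915 FPKM in pomegranate-high, 6.74 ± 1.24 in model and 7.75 ± 0.758 in normal control livers (SD, n = 3 each). Its difference between pomegranate-high and model was −0.09 ± 0.21 (SE), and whether the 2 genes shared reads was not tested.

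Isg15 encodes a ubiquitin-like protein that is attached to other proteins and also secreted, and Usp18 encodes the protease that removes it and, apart from that activity, restrains signalling at IFNAR. Isg15 lies on chromosome 5, 173624310 to 173626248, minus strand. It stood at 14.7, 29.3 and 9.12 FPKM in pomegranate-high livers, against 2.06, 6.09 and 7.49 FPKM in model and 7.01, 7.14 and 8.81 FPKM in normal control livers. All pomegranate-high libraries were above all others, although replicate 3 exceeded the highest control only narrowly, and the controls were tight with a coefficient of variation of 13.1%. The difference between pomegranate-high and model was the largest of the 9, 1.57 ± 0.44 (SE, limma adjusted p = 0.478). Between pomegranate-high and normal control it was 0.97 ± 0.44 (limma adjusted p = 0.492), and between model and normal control −0.60 (95% interval −1.58 to 0.39).

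Usp18 lies on chromosome 4, 153805993 to 153834430, plus strand. It had 10.2, 21.4 and 13.1 FPKM in pomegranate-high livers, against 3.72, 4.61 and 11.2 FPKM in model and 9.51, 6.43 and 12.6 FPKM in normal control livers. Here the groups overlapped, since model replicate 3 was above pomegranate-high replicate 1, and so was control replicate 3. The difference was 1.15 ± 0.40 (SE) between pomegranate-high and model (limma adjusted p = 0.483), 0.58 ± 0.40 between pomegranate-high and normal control (limma adjusted p = 0.604) and −0.57 (95% interval −1.45 to 0.31) between model and normal control.

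Mx1 and Mx2 encode dynamin-like GTPases, which in rodents act against RNA viruses from the nucleus (Mx1) or the cytoplasm (Mx2). Both lie on chromosome 11, Mx1 at 37891156 to 37914983 on the minus strand and Mx2 at 38035450 to 38059950 on the plus strand, 120467 bp apart. As near copies they may share reads, so the division of reads between them is uncertain. The deposited table names the second row Mx2, but 1 of its protein annotations reads Mx3, so that row may be another Mx copy. Mx1 stood at 6.69, 5.89 and 3.26 FPKM in pomegranate-high livers, against 0.662, 1.88 and 2.74 FPKM in model and 2.72, 2.07 and 2.85 FPKM in normal control livers. Its lowest value, 0.662 FPKM in model replicate 1, rested on 30 reads, the fewest of any of the 9 genes in any library. All pomegranate-high libraries were above all others. The difference was 1.22 ± 0.32 (SE) between pomegranate-high and model (limma adjusted p = 0.478) and 0.79 ± 0.32 between pomegranate-high and normal control (limma adjusted p = 0.460). Model livers differed from normal control by −0.43 (95% interval −1.16 to 0.29).

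Mx2 had 15.3, 38.2 and 23.9 FPKM in pomegranate-high livers, against 6.04, 4.93 and 18.8 FPKM in model and 13.9, 11.8 and 20.4 FPKM in normal control livers. Model replicate 3 and control replicate 3 lay above pomegranate-high replicate 1, so the groups overlapped, and model replicates 1 and 2 lay below every other library. The difference was 1.42 ± 0.47 (SE) between pomegranate-high and model (limma adjusted p = 0.478) and 0.65 ± 0.47 between pomegranate-high and normal control (limma adjusted p = 0.616). For model against normal control it was −0.77 (95% interval −1.81 to 0.27).

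Ifit2 and Ifit3 encode tetratricopeptide proteins that bind one another and hold back translation of viral RNA. They are neighbours on chromosome 1, plus strand, Ifit2 at 252894663 to 252900726 and Ifit3 at 252906234 to 252911382, with 5508 bp between them. Ifit2 stood at 9.30, 17.8 and 10.4 FPKM in pomegranate-high livers, against 6.99, 4.75 and 4.42 FPKM in model and 4.90, 2.89 and 2.96 FPKM in normal control livers. It was the gene with the clearest separation from the controls. Every pomegranate-high library was above every model and control library, and the model mean was above the control mean although those groups overlapped. The difference between pomegranate-high and normal control was 1.54 ± 0.29 (SE, limma adjusted p = 0.263), and without pomegranate-high replicate 3 its adjusted p was 0.0405, in a setting that called 328 genes (2.96% of all) in place of 2. That was the single call of any of the 9 genes in the alternatives tried, whose adjusted p for Ifit2 in this comparison ran from 0.0405 to 0.647. The setting of that call left pomegranate-high replicates 1 and 2, both of high mitochondrial share. Between pomegranate-high and model the difference was 1.05 ± 0.29 (limma adjusted p = 0.478), and between model and normal control 0.48 (95% interval −0.16 to 1.13).

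Ifit3 had 4.93, 13.7 and 3.63 FPKM in pomegranate-high livers, against 1.47, 2.39 and 3.01 FPKM in model and 3.78, 2.15 and 4.25 FPKM in normal control livers. It was above all model libraries in each pomegranate-high library, but pomegranate-high replicate 3 lay within the controls. The difference was 1.20 ± 0.41 (SE) between pomegranate-high and model (limma adjusted p = 0.481), 0.79 ± 0.41 between pomegranate-high and normal control (limma adjusted p = 0.531) and −0.41 (95% interval −1.32 to 0.49) between model and normal control. Although adjacent, Ifit2 and Ifit3 thus differed in the sign of the estimate between model and normal control, neither of which passed.

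Rsad2 encodes viperin, a radical SAM enzyme that makes a chain-terminating nucleotide, and lies on chromosome 6, 45655954 to 45669148, minus strand. It was the least abundant of the 9 in every group, with 1.53, 9.69 and 1.57 FPKM in pomegranate-high livers. The model livers held 0.897, 0.8001 and 1.36 FPKM and the normal control livers 1.06, 0.575 and 0.744 FPKM. The pomegranate-high mean was carried by replicate 2, whose level was 6.23 times the mean of replicates 1 and 3, and the coefficient of variation of that group was 110%. The pomegranate-high libraries lay above all others, but replicate 1 (92 reads) stood close to model replicate 3 (85 reads). The difference was 1.04 ± 0.47 (SE) between pomegranate-high and model (limma adjusted p = 0.573) and 1.21 ± 0.47 between pomegranate-high and normal control (limma adjusted p = 0.440). Without pomegranate-high replicate 2 these values were 0.35 and 0.52. Model minus normal control gave 0.17 (95% interval −0.88 to 1.22).

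Oas1a encodes a 2′-5′ oligoadenylate synthetase, an enzyme that senses double-stranded RNA and makes the activator of RNase L. It lies on chromosome 12, 41200718 to 41211909, plus strand, among related copies (Oas1h and Oas1b are the nearest genes), so its reads may be shared. It departed from the other 8, with 11.1, 9.93 and 15.6 FPKM in pomegranate-high livers, against 2.88, 7.49 and 20.3 FPKM in model and 12.4, 11.5 and 23.4 FPKM in normal control livers. Replicate 3 of both the model and the control group exceeded every pomegranate-high library. The difference was 0.55 ± 0.53 (SE) between pomegranate-high and model (limma adjusted p = 0.780) and turned to −0.0496 without model replicate 1. It was −0.30 ± 0.53 between pomegranate-high and normal control (limma adjusted p = 0.850) and turned to 0.0058 without control replicate 3, and −0.85 (95% interval −2.02 to 0.32) between model and normal control.

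**Figure D2:**
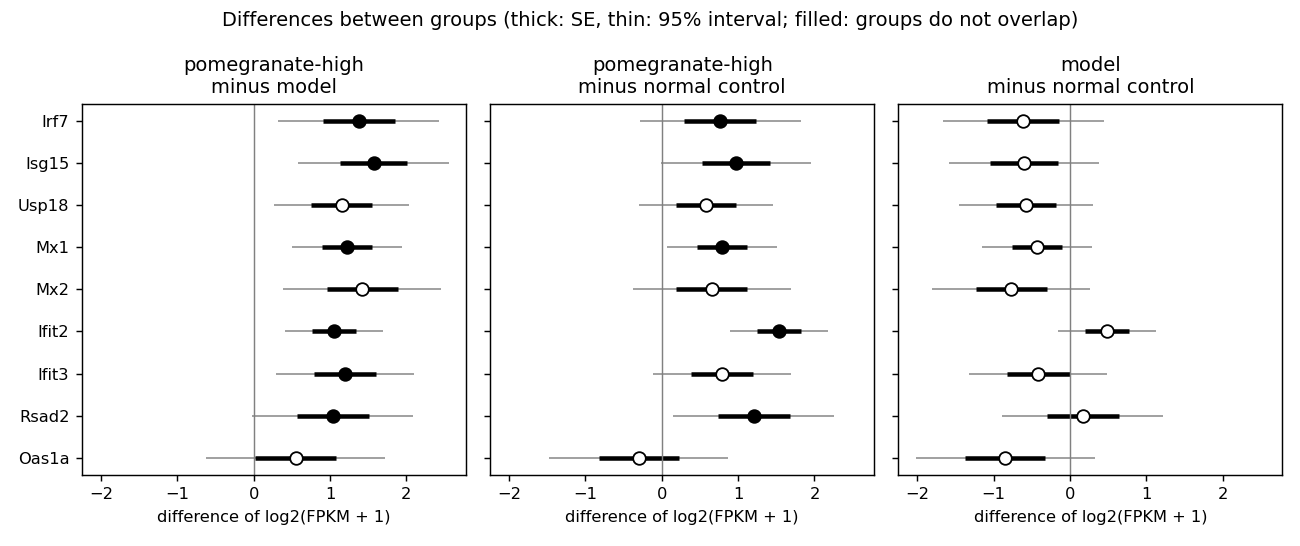
Differences between groups for the 9 genes (rows) on the log2(FPKM + 1) scale (x axis), with the SE as a thick and the 95% interval as a thin line from limma (n = 3 per group); filled points mark genes whose groups do not overlap. Between pomegranate-high and model 8 of the 9 estimates are at least 1, between pomegranate-high and normal control Ifit2 (1.54) and Rsad2 (1.21) are, and between model and normal control no point is filled.

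Per length, the order of mean levels in normal control livers was Irf7 (20.1 FPKM), Oas1a (15.8), Mx2 (15.4), Usp18 (9.501), Isg15 (7.66), Ifit2 (3.58), Ifit3 (3.39), Mx1 (2.55) and Rsad2 (0.794). Neighbours in this order overlapped in their libraries, except Isg15 with Ifit2 and Mx1 with Rsad2. In the pomegranate-high livers Irf7 (34.2 FPKM) and Mx2 (25.8) led, Isg15 (17.7) came next, Oas1a (12.2) lay below Ifit2 (12.5), and all neighbours overlapped. In the model livers Irf7 (15.01 FPKM), Oas1a (10.2) and Mx2 (9.91) led, and all neighbours again overlapped.

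Libraries of 1 group differed widely in the 9 genes. The mean over the 9 of each library's log2(FPKM + 1) minus the control mean was 0.53, 1.34 and 0.46 in pomegranate-high replicates 1 to 3. It was −0.96, −0.46 and 0.22 in model replicates 1 to 3 and 0.03, −0.29 and 0.26 in the controls. Model replicate 3 thus stood among the controls, with 0 of the 9 genes below all 3 control libraries, whereas model replicate 1 had 7 below all of them and model replicate 2 had 6. Of the pomegranate-high libraries, replicate 2 exceeded all controls in 8 genes, replicate 3 in 7 and replicate 1 in 6.

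Pomegranate-high replicate 2 was the highest library of all in 7 genes, not in Mx1 (replicate 1) nor in Oas1a (control replicate 3). Its excess over the mean of replicates 1 and 3 ran from 0.745 times in Oas1a and 1.18 times in Mx1 to 2.46 times in Isg15, 3.20 times in Ifit3 and 6.23 times in Rsad2. Both this library and model replicate 1, the lowest library in 6 genes, had a high mitochondrial share (11.4% and 14.5%). The part of that share in these levels was not tested.

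**Figure D3:**
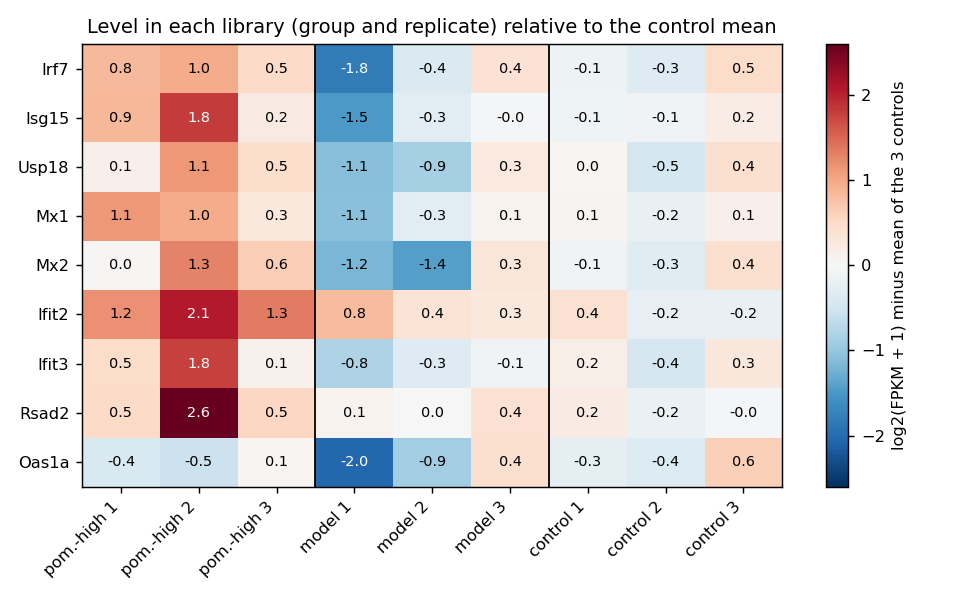
Level of each of the 9 genes (rows) in each library (columns, pomegranate-high, model, normal control) as log2(FPKM + 1) minus the mean of the 3 controls; red is above and blue below the controls. Pomegranate-high replicate 2 holds the largest value (Rsad2, 2.58), model replicate 1 the lowest (Oas1a, −2.04), and model replicate 3 lies close to the controls (0.22 on average).

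Without the 3 libraries of high mitochondrial share, which leaves 1 pomegranate-high library whose spread is assumed to be that of the other groups, all 9 genes were higher in pomegranate-high than in model and than in normal control. Their median difference was then 0.38 in place of 1.20, with 1 of 9 at an unadjusted p under 0.05 (2.63% of all genes), and 0.46 in place of 0.79, also with 1 of 9 (4.44% of all genes). Between model and normal control the median was −0.15 in place of −0.57. When that share entered the fit as a covariate, the medians were 1.20 between pomegranate-high and model, 0.90 between pomegranate-high and normal control and −0.31 between model and normal control. Leaving out pomegranate-high replicate 2 alone gave a median of 0.88 against model, with 5 of 9 at an unadjusted p under 0.05 (4.16% of all genes), and of 0.52 against normal control, with 2 of 9 (3.65%). Against normal control that count was 1 without control replicate 2 (3.95% of all genes) or control replicate 3 (5.81%). It was 5 without model replicate 1 (9.01%) or pomegranate-high replicate 3 (10.8%). Between model and normal control the median was −0.15 without model replicate 1, −0.89 without model replicate 3, where 4 of 9 were lower at an unadjusted p under 0.05 (1.66% of all genes), and −0.37 without control replicate 3.

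Over the 9 libraries Usp18 and Mx2 were the most alike pair on the log2(FPKM + 1) scale (Pearson r = 0.976), followed by Mx1 and Isg15 (0.937) and by Ifit3 and Isg15 (0.934). Oas1a and Ifit2 were the least alike (r = −0.27). The median r with the other 8 genes was 0.835 for Usp18 and 0.826 for Isg15, and 0.494 for Ifit2 and 0.484 for Oas1a, the lowest. These values describe 9 libraries that share the scaling to a library total and include the 3 that stood apart, and they are no test.

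The 10 tested genes outside the 9 whose pattern over the 9 libraries was most like their mean were Oasl (r = 0.982), Snn (0.963), Adm (0.960), Tcf21 (0.957), Il21r (0.948), Rtp4 (0.944), Hddc2 (0.943), Cables1 (0.942), Tnnt3 (0.931) and Mvp (0.930). Without pomegranate-high replicate 2 and model replicate 1, the libraries farthest from the median of that mean, r ranged from 0.684 (Mvp) to 0.965 (Oasl). Adm, Il21r and Tnnt3 averaged 0.61, 0.55 and 0.53 FPKM in model and 0.88, 0.66 and 0.52 FPKM in normal control livers. Their passing the filter thus leaned on the pomegranate-high group, and their likeness to the 9 genes is no support. Oasl, an oligoadenylate synthetase-like gene, averaged 6.86 ± 2.93 FPKM in pomegranate-high livers, 2.52 ± 1.43 in model and 3.32 ± 1.04 in normal control livers (SD, n = 3 each). Tcf21, a mesenchymal transcription factor gene, averaged 8.02 ± 1.58 FPKM in pomegranate-high, 3.02 ± 0.932 in model and 4.21 ± 0.406 in normal control livers. Its difference between pomegranate-high and model was 1.18 ± 0.23 (SE, limma adjusted p = 0.453).

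Upstream of these genes, interferon transcripts themselves were scarce. Of 12 interferon genes looked up by symbol 3 matched the table (Ifne, Ifnk and Ifng), and none reached 1 FPKM in any library. Ifng, which encodes interferon gamma, a product of T and natural killer cells, had 0.975 FPKM in pomegranate-high replicate 2, against 0.120 and 0.115 FPKM in model replicates 2 and 3, and was listed at 0 in the other 6 libraries. The model values lay below the 0.183 and 0.176 FPKM that 3 reads mean for 1 kb in those libraries. Ifng failed the filter and was not tested, so these values rest on very few reads and establish no difference in level. Symbols of the type I genes Ifnb1 and the Ifna family were not matched and are not analysed here.

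Of 6 receptor genes 5 were tested, while Ifnlr1, the chain specific to interferon lambda, stayed below 1 FPKM in every library. All 5 were higher in pomegranate-high than in model (median log2 difference 0.52, 1 at an unadjusted p under 0.05) and than in normal control (median 0.36, 2 at that level). Over all genes the shares higher at that level were 7.12% and 7.24%, which hold for the lists below as well. By limma 0 of the 5 passed after adjustment in either comparison. Ifngr2, the second chain of the interferon gamma receptor, had 8.64, 18.6 and 9.81 FPKM in pomegranate-high livers, against 4.74, 6.06 and 5.16 FPKM in normal control livers (1.01 ± 0.27 SE, limma adjusted p = 0.328). Il10rb, a chain shared by the receptors of interleukin 10 and interferon lambda, had 8.57, 17.4 and 5.85 FPKM in pomegranate-high livers, against 5.07, 5.30 and 4.56 FPKM in normal control. In both genes the groups did not overlap and pomegranate-high replicate 2 was the highest. Ifnar2, the signalling chain of the type I receptor, overlapped between pomegranate-high and model (0.39 ± 0.32).

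The JAK-STAT relay showed no common direction. Of its 7 genes 4 were higher and 3 lower in pomegranate-high than in model (median 0.25, 0 at an unadjusted p under 0.05), and 3 were higher and 4 lower than in normal control (median −0.05, 1 at that level). The kinase gene Jak2 had 3.08, 7.09 and 3.08 FPKM in pomegranate-high livers, against 2.11, 1.73 and 1.84 FPKM in normal control (0.83 ± 0.28, limma adjusted p = 0.406). Jak1 was lower in pomegranate-high than in model by estimate (−0.31 ± 0.28), and this sign turned without the 3 libraries of high mitochondrial share (0.16). Stat3 stood lower in model, 13.4, 24.6 and 21.0 FPKM, than in normal control livers, 30.02, 30.5 and 41.2 FPKM (−0.78 ± 0.28, limma adjusted p = 0.999).

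Among 12 tested sensors of foreign nucleic acid and their adaptors, 8 were higher in pomegranate-high than in model (median 0.14, 2 at an unadjusted p under 0.05). Tmem173, which encodes the adaptor STING of the cytosolic DNA pathway, had 2.88, 3.17 and 2.05 FPKM in pomegranate-high livers, against 0.606, 0.796 and 1.20 FPKM in normal control livers (0.98 ± 0.26, limma adjusted p = 0.328). Outside pomegranate-high it reached 1 FPKM only in model replicate 2 and control replicate 3, so its passing the filter leaned on that group. Dhx58, a helicase of the RIG-I family, had 8.32, 9.88 and 8.52 FPKM in pomegranate-high livers, against 3.42, 6.48 and 7.84 FPKM in model livers (0.57 ± 0.26, limma adjusted p = 0.573). In both genes the groups did not overlap. Of the 5 tested enzymes that attach ISG15 to proteins, 3 were higher in pomegranate-high than in model (median 0.53, 1 at an unadjusted p under 0.05). The ligase gene Herc6 had 1.498, 7.56 and 1.92 FPKM in pomegranate-high livers, against 1.14, 1.11 and 1.03 FPKM in model livers (0.92 ± 0.39, limma adjusted p = 0.564), while Trim25, another ligase, was lower in pomegranate-high than in normal control (−1.07 ± 0.44, limma adjusted p = 0.451). The Trim25 value turned to 0.0337 without the 3 libraries of high mitochondrial share.

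Other antiviral effectors pointed the same way as the 9 genes. Of 15 tested, 14 were higher in pomegranate-high than in model (median 0.69, 5 at an unadjusted p under 0.05, 0 adjusted) and 11 were higher than in normal control (median 0.32, 6 at that level, 0 adjusted). Oasl2, a second synthetase-like gene, had 4.26, 9.89 and 3.59 FPKM in pomegranate-high livers, against 1.75, 1.68 and 1.64 FPKM in normal control livers (1.25 ± 0.31, limma adjusted p = 0.285). Ifitm1 and Ifitm2, which encode membrane proteins that hinder virus entry, differed between pomegranate-high and model by 1.65 ± 0.49 and 1.65 ± 0.47 with no overlap. For these, pomegranate-high replicate 1 and not replicate 2 was the highest library (219 FPKM of Ifitm1 and 59.5 FPKM of Ifitm2). Without pomegranate-high replicate 2 the median of the 15 against normal control was 0.05, with 3 at an unadjusted p under 0.05 (3.65% of all genes higher). Without control replicate 2 it was 0.22, also with 3 (3.95%).

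Among 32 further genes induced by type I interferon, 28 were higher in pomegranate-high than in model (median 0.61, 11 at an unadjusted p under 0.05, 0 adjusted) and 28 than in normal control (median 0.35, 7 at that level, 0 adjusted). Rtp4, a chaperone of receptor transport, had 30.5, 59.6 and 28.1 FPKM in pomegranate-high livers, against 8.19, 17.5 and 17.1 FPKM in model livers (1.39 ± 0.36, limma adjusted p = 0.478). Tor3a, a torsin family ATPase, had 6.86, 5.73 and 12.6 FPKM in pomegranate-high livers and only 0.606, 1.42 and 1.23 FPKM in model livers (2.13 ± 0.32, limma adjusted p = 0.158). The controls held 9.95, 6.75 and 4.98 FPKM of it. Its highest library of all was pomegranate-high replicate 3, which was the highest of all for 0 of the 9 genes. Within the pomegranate-high group Oas1a was highest in that replicate too. Without pomegranate-high replicate 2 the 32 genes had a median of 0.38 against model, 7 at an unadjusted p under 0.05 (4.16% of all genes higher). Against normal control their median was then 0.15, 4 at that level (3.65%).

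All 16 tested genes of the interferon gamma response and guanylate-binding proteins were higher in pomegranate-high than in model (median 1.24, 11 at an unadjusted p under 0.05, 0 adjusted) and than in normal control (median 1.01, 8 at that level, 0 adjusted). Cxcl10, a chemokine for T cells, had 24.5, 154 and 22.7 FPKM in pomegranate-high livers, against 1.91, 1.49 and 5.84 FPKM in normal control livers (3.63 ± 0.74, limma adjusted p = 0.285). Cxcl9, a second ligand of the same receptor, had 38.1, 135 and 27.7 FPKM in pomegranate-high livers, against 9.08, 6.02 and 11.3 FPKM in normal control (2.49 ± 0.50). The model livers held 2.71, 7.33 and 13.7 FPKM of Cxcl10 and 15.3, 24.1 and 16.4 FPKM of Cxcl9. Both were higher in model than in normal control by estimate (1.07 and 1.01), without overlap in Cxcl9. Of the 16 genes 6 were higher and 10 lower in that comparison (median −0.04). In pomegranate-high, Gbp2 and Gbp5 differed from normal control by 2.27 ± 0.57 and 2.12 ± 0.61. In all 4 genes the pomegranate-high libraries lay above all controls and pomegranate-high replicate 2 was the highest. The summed level of the 21 matched genes of this list was 959 FPKM in that library, 362 and 262 FPKM in pomegranate-high replicates 1 and 3, 114 to 225 FPKM in model and 171 to 203 FPKM in normal control livers. Without that library the median against model was 0.70, with 6 of 16 at an unadjusted p under 0.05 (4.16% of all genes higher). It was 0.88 without model replicate 1, with 5 of 16 (4.45%). Without control replicate 2 the count against normal control was 5 of 16 (3.95%).

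Genes that restrain interferon signalling had no common direction, with 3 of 8 higher in pomegranate-high than in model (median −0.07, 0 at an unadjusted p under 0.05). Ptpn6, a phosphatase of blood cells, had 18.9, 18.4 and 15.04 FPKM in pomegranate-high livers, against 8.45, 13.6 and 14.6 FPKM in model livers (0.51 ± 0.24, limma adjusted p = 0.593).

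Without the 3 libraries of high mitochondrial share, 11 of the 16 interferon gamma and guanylate-binding genes were higher in pomegranate-high than in model. Their median was 0.20, against 0.11 over all genes. The further type I interferon-induced genes then had 23 of 32 higher (median 0.32) and the other antiviral effectors 13 of 15 (median 0.35). Against normal control the interferon gamma list kept a median of 0.55, with 13 of 16 higher, against a median of 0.15 over all genes.

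**Figure D4:**
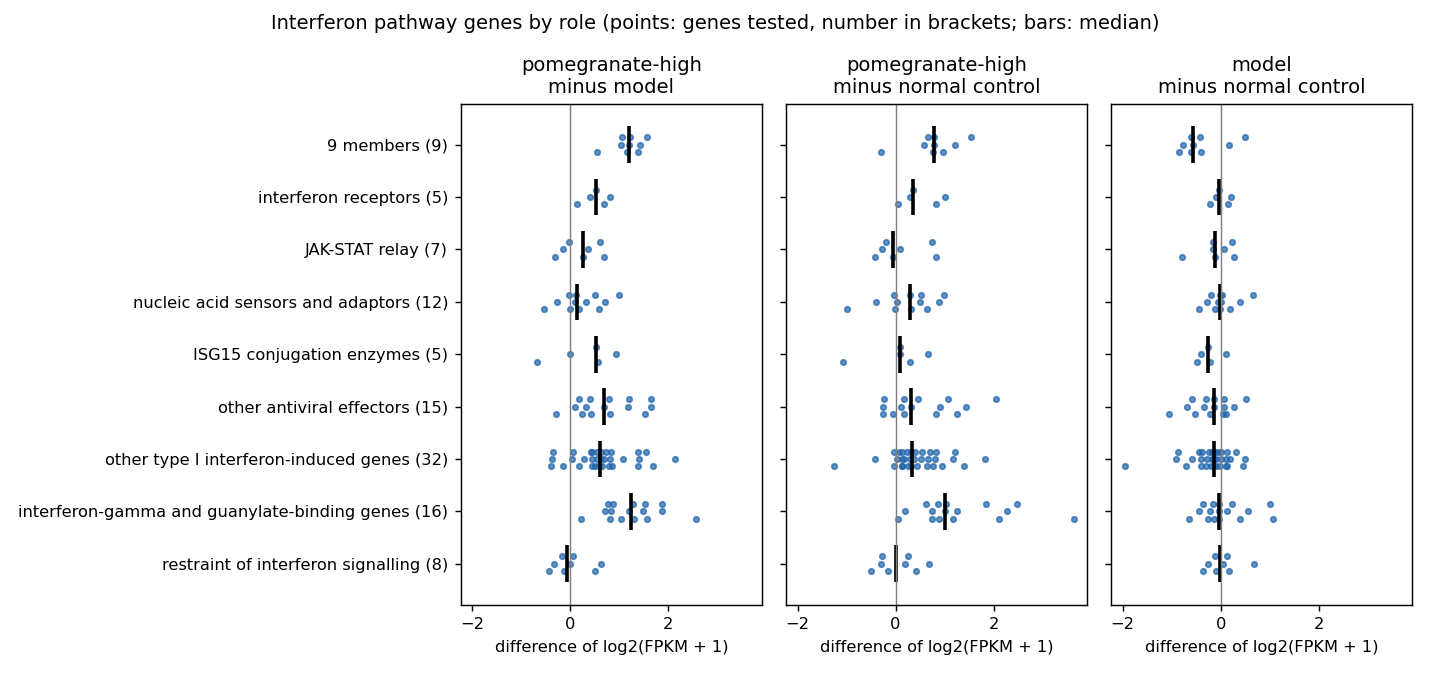
Difference of log2(FPKM + 1) (x axis) of every tested gene of the interferon pathway by role (rows, number tested in brackets), 1 panel per comparison; points are genes and black bars medians. Between pomegranate-high and model the medians of the 9 genes (1.20) and of the interferon gamma and guanylate-binding genes (1.24) lie farthest to the right, and those of the JAK-STAT relay (0.25), the nucleic acid sensors (0.14) and restraint (−0.07) lie nearest to 0.

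Marker genes of immune cells also differed between the groups, and no association with the 9 genes was tested. All 13 Kupffer cell and macrophage markers were higher in pomegranate-high than in model (median 0.99, 6 at an unadjusted p under 0.05), and 12 of 13 were lower in model than in normal control (median −0.79, 4 at that level). Of all genes 1.78% were lower in model than in normal control at that level. Against normal control 9 of 13 were higher in pomegranate-high and 4 lower (median 0.21, 1 at that level). Their summed level was 623 to 1338 FPKM in pomegranate-high, 174 to 572 FPKM in model and 481 to 890 FPKM in normal control livers, and none of them was listed at 0 in all libraries. The 1 marker at that level against normal control was Lyz2, the lysozyme gene, with 88.8, 181 and 53.3 FPKM in pomegranate-high livers, against 15.9, 16.6 and 33.02 FPKM in normal control livers (2.15 ± 0.46, limma adjusted p = 0.285). Clec4f, Marco, Cd163, Vsig4, Cd5l and Adgre1, named after their values were seen, were lower in pomegranate-high replicate 2 than in every control library. Lyz2 and Cd68 were higher there than in every control (Cd68 58.7 FPKM, against 23.1, 22.3 and 40.9 FPKM). The summed level of all 13 was 688 FPKM in that library, within the range of the controls. Without pomegranate-high replicate 1, the library highest in this sum, the median against model was 0.69 with 2 of 13 at an unadjusted p under 0.05 (5.36% of all genes higher). In that setting 3 of 13 were higher than in normal control in place of 9. Without model replicate 1 the median against model was 0.51, also with 2 of 13 at that level (4.45% of all genes higher). Between model and normal control it was then −0.39 with 1 of 13 (1.01% of all genes lower). That last count was 7 without model replicate 2 (3.05%), 1 without control replicate 1 (1.7%) or 3 (0.993%) and 2 without control replicate 2 (1.35%).

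Of 17 lymphocyte and leukocyte markers 6 were tested, all higher in pomegranate-high than in model (median 0.85, 5 at an unadjusted p under 0.05), and 5 of the 6 were higher than in normal control (median 0.85, 5 at that level). These counts include Cd3g, which outside pomegranate-high reached 1 FPKM only in model replicate 2 and control replicate 3. Its passing the filter thus leaned on that group, and its place in the counts is no support for them. Against model 2 of the 6 were at that level without pomegranate-high replicate 2 (4.16% of all genes higher) or without model replicate 1 (4.45%) or 3 (4.78%). Against normal control 3 of the 6 were without pomegranate-high replicate 1 (6.54%) or 2 (3.65%) or control replicate 1 (5.39%) or 2 (3.95%). The summed level of the 17 was 38.6, 48.3 and 26.6 FPKM in pomegranate-high, 13.2, 23.9 and 17.4 FPKM in model and 17.8, 19.9 and 29.7 FPKM in normal control livers, and Klrb1 was listed at 0 in every library. Cd8a, the coreceptor gene of cytotoxic T cells, had 8.63, 9.57 and 2.92 FPKM in pomegranate-high livers, against 1.38, 1.30 and 2.61 FPKM in normal control livers (1.45 ± 0.38, limma adjusted p = 0.309). The marker lower than in normal control was Cd4, with 10.5, 9.26 and 11.1 FPKM in pomegranate-high, against 10.9, 13.01 and 15.3 FPKM in normal control livers.

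Plasmacytoid dendritic cells, the professional producers of type I interferon, had 8 markers measured. Of these 7 stayed below 1 FPKM in all libraries, among them Siglech at 0.199 FPKM at most. Il3ra, which other blood cells also express, had 11.1, 14.3 and 9.54 FPKM in pomegranate-high, 3.49, 9.80 and 9.69 FPKM in model and 7.98, 10.5 and 12.8 FPKM in normal control livers. All 10 liver endothelial markers tested were lower in model than in normal control (median −0.80, 8 at an unadjusted p under 0.05), with 1.78% of all genes lower at that level. Between pomegranate-high and model 9 of 10 were higher (median 0.38, 2 at that level, or 0.24 and 0 without pomegranate-high replicate 2). Of all genes 7.12% were higher at that level, or 4.16% without that replicate. Between pomegranate-high and normal control 8 of 10 were lower (median −0.36, 3 at that level, or −0.57 and 4 without pomegranate-high replicate 2). Of all genes 2.92% were lower, or 1.66% without that replicate. The endothelial markers summed to 97.1, 151 and 110 FPKM in pomegranate-high, 71.2, 114 and 85.9 FPKM in model and 144 to 166 FPKM in normal control livers. The hepatocyte markers summed to 56030 to 72781 FPKM in pomegranate-high, 72889 to 79947 FPKM in model and 77811 to 85028 FPKM in normal control livers. The part of these cell types, and of the mitochondrial share, in the levels of the interferon-stimulated genes was not tested.

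**Figure D5:**
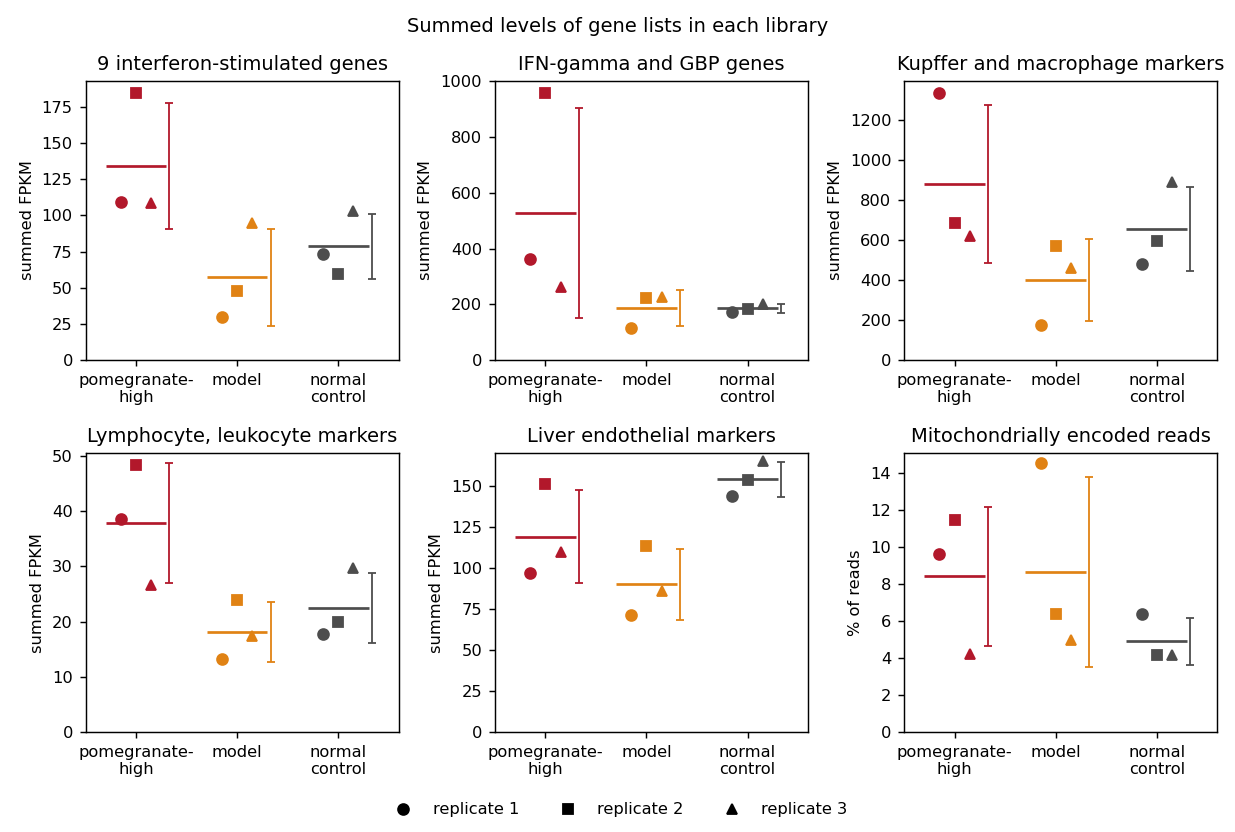
Summed FPKM of gene lists (5 panels) and share of reads on mitochondrially encoded genes (last panel) in each library of the pomegranate-high, model and normal control groups; symbols give the replicate, lines the mean and bars the SD (n = 3). The 9 genes sum to 108 to 185 FPKM in pomegranate-high, 29.5 to 94.7 in model and 59.7 to 103 in normal control livers, with pomegranate-high replicate 2 highest here and in the interferon gamma and lymphocyte panels, and pomegranate-high replicate 1 highest in the Kupffer panel.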

How the data were processed

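Poly(A) RNA of 9 liver libraries was sequenced with random priming and a strand-marking second strand, per the labels' protocols. The authors deposited 1 table of FPKM values, 1 column per library, without pooling, and 0 value columns were left unmapped. Per the submitters' processing notes, HTSeq 0.6.0, Bowtie2 2.2.3, TopHat2, HISAT2, DESeq and DESeq2 were among the tools and Rnor_6.0 the build, with no role or order given. No source used here states if strand entered the counting. FPKM divides by the library total, so abundant genes can shift all others.

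Whole reads were recovered from the steps of the FPKM values. All 146433 values above 0 (100%) came out whole within 0.001 reads, with a whole length per gene chosen to make them so, and the reads summed to at least 99.987% of the implied totals. Count models served only as an alternative, since the values are FPKM.

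Groups came from the group label, and replicate numbers, given in accession order, pair nothing. In R 4.3.3, limma 3.58.1 was fitted to log2(FPKM + 1), which understates fold changes of low genes, with all 9 libraries in 1 fit, 3 group levels and an intensity trend. All p-values are two-sided and adjusted by Benjamini-Hochberg over 11078 genes per comparison and a threshold of 0.05. The code was tested on simulated data. The genes and the 16 gene lists (223 symbols, 203 matched by the file's symbols) were chosen with earlier results of these data known. Named were all 9 genes, up to 4 per list with the smallest p in any comparison, and the 10 genes most correlated with the mean standardised level of the 9. Some genes that this rule names in the lists are left to their counts. Siglech, Il3ra, Ifnlr1 and Phrf1 were added after their values were seen. The alternatives were a pseudocount of 0.1, no filter, a mean FPKM of at least 5, TPM, median-of-ratios scaling, a fit of 2 groups alone, library quality weights, limma's voom on recovered reads, leaving out the 3 libraries highest in mitochondrial share, that share as a covariate, and leaving out each library in turn (19 in all). No sequences are shown.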

Additional observations from a re-analysis of the deposited data

How the results depend on the processing

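Over 168 values of the 9 genes per comparison in 19 alternatives, 166 kept their direction between pomegranate-high and model, 165 between pomegranate-high and normal control and 166 between model and normal control. Those that turned were Oas1a between pomegranate-high and model with quality weights (−0.26) and when 1 library was left out (−0.0496 to 1.18), and Oas1a between pomegranate-high and normal control without the 3 libraries of high mitochondrial share (0.0538), with that share as a covariate (0.30) and when 1 library was left out (−0.48 to 0.0058). Between model and normal control Irf7 turned with quality weights (0.0847) and Rsad2 with the covariate (−0.0798). Without those 3 libraries the signs also turned of Jak1 (0.16) and Ube2l6 (−0.0719) against model, and of Trim25 (0.0337), Ptpn11 (0.21) and Ptpn2 (−0.0484) against normal control. The cause was not tested. Between pomegranate-high and normal control, quality weights or 2 groups alone put 5 of the 9 genes at an unadjusted p under 0.05, in place of 3. Of all genes 13.1% and 7.81% were then higher at that level, in place of 7.24%. With a mean FPKM of at least 5, which left 6 genes, the count was 1 (6.02% of all genes higher).

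The median of the 9 genes moved by more than the spread between replicates in 2 cases, to 0.38 between pomegranate-high and model without the 3 libraries and to −0.0495 between model and normal control with quality weights. When 1 library was left out it ran from 0.88 to 1.48 between pomegranate-high and model, 0.52 to 1.04 between pomegranate-high and normal control and −0.89 to −0.15 between model and normal control.

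Few genes of the whole table were called, so those counts were unstable. Leaving out pomegranate-high replicate 3 left that group with replicates 1 and 2, both of high mitochondrial share. Between pomegranate-high and model the call count of 1 became 0 with no filter, median-of-ratios scaling, 2 groups alone, voom, the covariate or without the 3 libraries, and 0 to 77 when 1 library was left out (77 without pomegranate-high replicate 3). Between pomegranate-high and normal control the count of 2 became 0 with a pseudocount of 0.1, no filter, a mean FPKM of at least 5, TPM, 2 groups alone, the covariate or without the 3 libraries, 1 with median-of-ratios scaling or voom, 6 with quality weights, and 0 to 328 when 1 library was left out (328 without pomegranate-high replicate 3). Between model and normal control the count of 1 became 0 with a pseudocount of 0.1, no filter, a mean FPKM of at least 5, voom or the covariate, 10 with quality weights, 2 without the 3 libraries, and 0 to 1 when 1 library was left out.

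Of the genes at an unadjusted p under 0.05, 81.9% were higher in pomegranate-high than in model, against 71.4% with TPM and 59.6% with median-of-ratios scaling. For pomegranate-high and normal control these shares were 71.3%, 56.0% and 52.2%, and TPM shifted the median of all genes from 0.07 to −0.04. The medians of the 9 genes were then 0.72 with either scaling, and 1.20 with TPM and 1.11 with median-of-ratios scaling between pomegranate-high and model. No paired analysis was possible because the labels give no replicate number that links libraries of different groups. The 9 genes rested on 30 to 1575 reads per library, and the part of counting error in their spread was not tested.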

Other observations

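Genes next to the 9 on the chromosomes gave further values. Ifit1, another member of the Ifit cluster that lies 32721 bp from Ifit3, had 6.94, 16.1 and 3.21 FPKM in pomegranate-high livers and 1.24, 1.54 and 3.29 FPKM in model livers. In the normal controls it had 7.18 FPKM in replicate 1 and was listed at 0 in replicates 2 and 3, and its difference between pomegranate-high and model was 1.52 ± 0.77 (SE, limma adjusted p = 0.604). Cmpk2, a nucleotide kinase gene 14086 bp from Rsad2 on the opposite strand, had 1.31, 4.09 and 1.76 FPKM in pomegranate-high livers, against 0.590, 0.812 and 1.18 FPKM in model and 0.532, 0.893 and 0.710 FPKM in normal control livers. All pomegranate-high libraries lay above all others, while model and normal control overlapped, and its difference from normal control was 0.90 ± 0.29 (limma adjusted p = 0.399). Outside pomegranate-high Cmpk2 reached 1 FPKM only in model replicate 3, so its passing the filter leaned on that group. Oas1b, 15916 bp from Oas1a, had 2.501, 3.92 and 2.51 FPKM in pomegranate-high livers, against 0.790, 1.30 and 2.52 FPKM in model and 1.72, 1.81 and 4.61 FPKM in normal control livers, with overlap and, as in Oas1a, the highest value in control replicate 3. Bace2, 10335 bp from Mx1, had 2.83, 2.81 and 2.08 FPKM in pomegranate-high livers, against 0.620, 1.45 and 0.994 FPKM in model livers (0.84 ± 0.21, limma adjusted p = 0.478). Lipa, 44759 bp from Ifit2, averaged 70.3 ± 18.2 FPKM in pomegranate-high, 69.4 ± 10.9 in model and 67.6 ± 9.44 in normal control livers (SD, n = 3 each). These neighbours were picked by distance, within 60 kb of the 9 genes, and those named here after their values were seen.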
